A study of Mus musculus with 8 samples.

Results

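The genes that make, break down and carry D-amino acids in the brain were examined in the cerebral cortex and striatum of 2 inbred mouse strains. They were Srr (serine racemase), Dao (D-amino acid oxidase), Ddo (D-aspartate oxidase), and the transporter genes Slc1a4 and Slc7a10. A probe was taken as a member when the array annotation gave it one of these 5 gene names, of 37074 names in all. This gave 13 of 56605 probes, namely 5 for Srr, 3 for Ddo, 2 each for Dao and Slc7a10, and 1 for Slc1a4. Male BTBRTF/ArtRbrc mice (BTBR/R) were compared with male C57BL/6J mice (B6), with 4 mice per strain. All B6 mice were 4 months old, as were the BTBR/R mice other than replicate 1, which was 6 months old. No treatment or transgene is given for either strain. The B6 mice were purchased, and the BTBR/R mice came from a repository and were kept at more than 1 animal facility. Cortex and striatum of a mouse went into 1 RNA sample, and each sample was hybridized to its own 1-colour Agilent array.

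D-serine and D-aspartate are mirror forms of common amino acids that occur free in the mammalian brain. D-serine is made from L-serine by serine racemase and binds, as glycine does, to the co-agonist site of NMDA receptors, whereas D-aspartate binds to the glutamate site. D-amino acid oxidase and D-aspartate oxidase are peroxisomal enzymes that degrade neutral and acidic D-amino acids, respectively. Forebrain levels of D-serine are known to be high and Dao expression low, in contrast to the cerebellum. Slc1a4 (ASCT1) and Slc7a10 (Asc-1) encode exchangers that move serine and other small neutral amino acids across the cell membrane.

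The level of a probe is given as its scaled signal, which is its log2 processed signal less that of the 75th percentile on the same array, so that 0 is this percentile. A scaled signal of 0 stood for a processed signal of 556 to 572 in B6 and 535 to 589 in BTBR/R mice. Detected here means that the scanner software marked the probe as well above background on that array. The lowest detected scaled signal lay between -5.28 and -4.98 for B6 mice but between -3.97 and -3.55 for BTBR/R mice, so dim signals were detected more readily in B6 mice. All 8 arrays shared 1 slide and 1 scan, where B6 samples occupied column 1 and BTBR/R samples column 2, so that effects of the strain and of the column cannot be told apart. Markers of neurons (6 of 6 genes), cortical neurons (4 of 4) and striatal neurons (6 of 6) were detected on all 8 arrays. Of the 4 cerebellar markers, Gabra6 and Cbln3 were detected on no array, Fat2 in 4 B6 and 3 BTBR/R mice, and Pcp2 in all 8 mice. The choroid plexus markers were detected on all 8 arrays (6 of 6 genes), with a mean scaled signal of -1.61 to 0.75 in B6 mice and -0.85 to 0.12 in BTBR/R mice. Levels of different probes are not comparable, and in bulk tissue fewer cells of a type and less RNA per cell cannot be told apart.

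The 3 Ddo probes lie at separate places of the gene and carry the largest measured strain difference of the 5 genes, so the first 30 of their 60 bases are shown, 5′ to 3′ and in lower case. Positions are those of the mm9 build given with the arrays.
A_55_P2033997 (chr10:40357259-40357318, plus strand): tgtgtttggccaggcttttacaaccctgaa
A_66_P123155 (chr10:40369646-40369705, plus strand): accagggggcgatgttgtatcaatctcaaa
A_52_P448335 (chr10:40394596-40394655, plus strand): atgatttctggtatgtgtcataatggtaag
The second probe lies 12.4 kb beyond the first, and the last 24.95 kb beyond the second. The first and second probes are annotated to the RefSeq transcript NM_027442. The last is annotated only to predicted RefSeq variants, among them XM_006512847, and to cDNA clones. It shares 2 RefSeq accessions with the first probe and 0 with the second, and neither of the 2 is still listed for Ddo in the RefSeq table used here (GRCm38.p6). Whether the probes lie in exons, introns or UTRs was not analysed here. Nor was it analysed whether the strains differ in sequence under these or other probes, which a difference in signal between strains does not show.

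A pair of further probes share a run of at least 20 bases with other probes on the array and are shown because their signal may not come from the named gene alone. Capitals mark the shared run, which was looked for on both strands.
Slc1a4 A_55_P2109589, bases 29 to 58 (chr11:20202615-20202674, minus strand): GTGTGTGTGTGTATGTGTGTGcttttagct
Slc7a10 A_55_P2728217, bases 31 to 60 (chr7:35980415-35980474, plus strand): ttagACCAGTGGTTCTCAACCTTCaaaaaa
The run of the Slc1a4 probe is 21 bases of an interrupted GT repeat, of which 6 other probes hold at least 20. The run of the Slc7a10 probe occurs in 1 other probe. The other 11 probes share no such run.

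Of the 5 genes, Ddo had a probe that was lower in BTBR/R mice, Slc7a10 a probe that was slightly higher, and Srr and Slc1a4 probes whose strain means lay within the spread of the mice. Dao was at or below the detection limit of nearly every array. In the limma comparison, a probe was called at a Benjamini-Hochberg adjusted p below 0.05 over all probes and a change of at least 2-fold. By this rule 2 of the 13 probes were called, 1 each of Ddo and Dao, against 22.4% of all probes, 20.2% higher and 2.27% lower. Among the 8 member probes detected on all 8 arrays, 0 were called, against 2.20% of the 28547 such probes on the array. By the same limma fit, 2 of these 8 had an unadjusted p below 0.05, against 35.9% of all such probes. The methods' t-test called 0 of the 8, against 2.15% of all such probes. After normexp background correction of the spot intensities, 0 of the 13 were called, against 0.995% of all probes. The median change of the 8 probes was 0.07 on the log2 scale, beside 0.0015 for all probes detected on all 8 arrays. All changes are the BTBR/R mean minus the B6 mean.

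**Figure D1:**
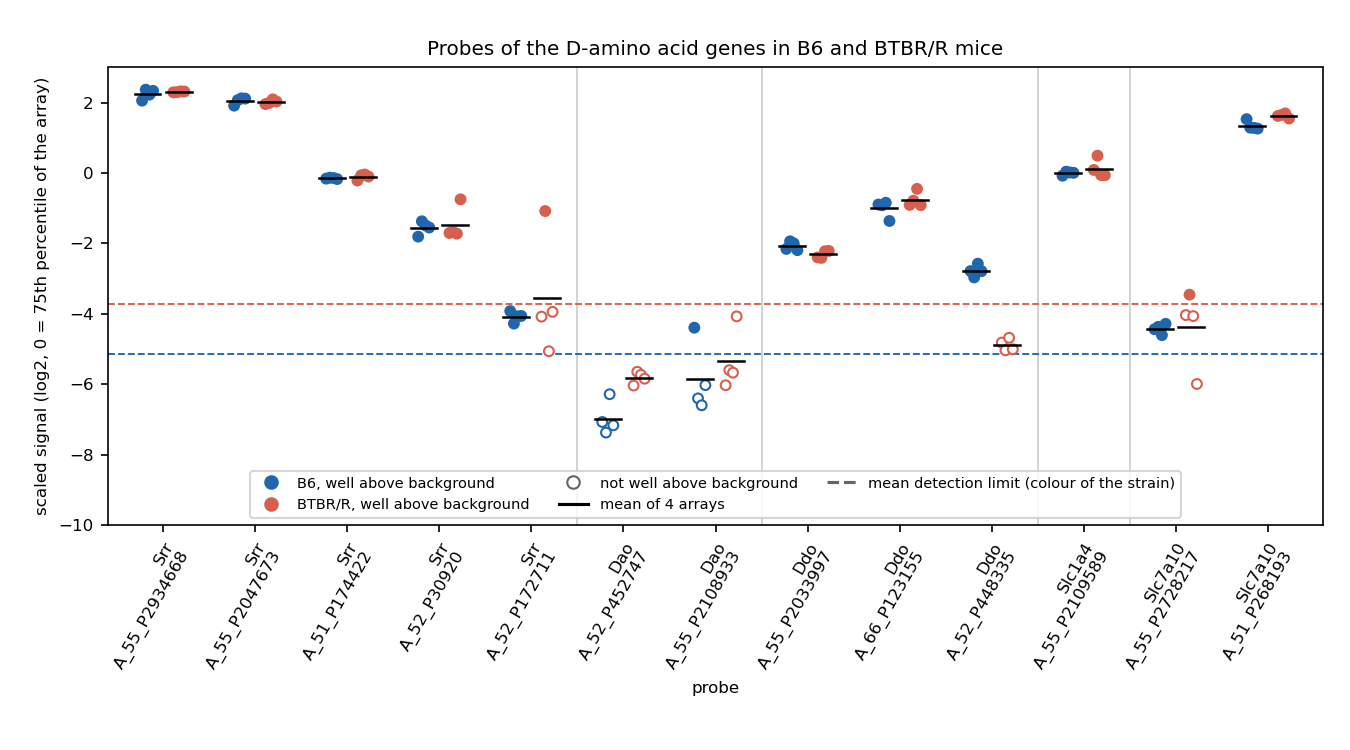
Scaled signal (log2, 0 is the 75th percentile of the array) of each of the 13 probes on the 4 B6 and the 4 BTBR/R arrays. Filled points were well above background and open points were not, black lines are strain means, and dashed lines are the mean detection limits of the strains. The strains lie apart at Ddo A_52_P448335, where the 4 BTBR/R points, -5.04 to -4.68, are open.

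Serine racemase (Srr), the enzyme that forms D-serine, was measured by 5 probes on chromosome 11, 4 of them detected on every array. For A_55_P2934668 the B6 signals were 2.06, 2.37, 2.23 and 2.34 and the BTBR/R signals 2.29, 2.30, 2.32 and 2.32. The BTBR/R values fell inside the range of the B6 mice, with the widest gap between B6 mice themselves. The change was 0.06 (SE 0.07, limma adjusted p = 0.561), with a 95% interval from -0.11 to 0.23.

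For A_55_P2047673, which is annotated to the transcript NM_013761, the B6 signals were 1.92, 2.07, 2.12 and 2.12 and the BTBR/R signals 1.96, 1.99, 2.10 and 2.03. The strains overlapped, and the change was -0.04 (SE 0.06, limma adjusted p = 0.678, 95% interval -0.18 to 0.11). For A_51_P174422, of the same transcript, the B6 signals were -0.16, -0.13, -0.14 and -0.17 and the BTBR/R signals -0.21, -0.07, -0.04 and -0.10. The B6 mice lay close together here, and the BTBR/R mice spread on both sides of them. The change was 0.05 (SE 0.05, limma adjusted p = 0.517, 95% interval -0.07 to 0.16). Each of these 3 intervals excludes a change of more than 1.17-fold upwards or 1.14-fold downwards.

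The other 2 Srr probes were each set by a single BTBR/R mouse. For A_52_P30920 the B6 signals were -1.81, -1.37, -1.49 and -1.55, and the BTBR/R signals were -1.70, -1.68, -1.72 and -0.75. BTBR/R replicate 4 stood above all other mice, and the change of 0.09 (SE 0.24, limma adjusted p = 0.794) became -0.15 without it. For A_52_P172711, which is annotated to a cDNA clone of the Srr locus (AK080470) and to no RefSeq transcript, the B6 signals were -3.92, -4.28, -4.07 and -4.06. The BTBR/R signals were -4.08, -1.08, -5.06 and -3.94, of which that of replicate 2 alone was well above background. The change of 0.54 (SE 0.78, limma adjusted p = 0.623) turned to -0.28 without replicate 2.

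D-amino acid oxidase (Dao), which degrades D-serine, had 2 probes on chromosome 5, and both were close to the noise. A_52_P452747 (chr5:114473931-114474838, plus strand) has 60 bases but spans 908 bases of the genome. Its B6 signals were -7.07, -7.37, -6.28 and -7.17 and its BTBR/R signals -6.04, -5.65, -5.73 and -5.84, and it was well above background on no array of either strain. The change of 1.16 (SE 0.23, limma adjusted p = 0.00595) passed the rule for a call, but no fold is given because both strains were below background. Of the 14874 probes detected on no array, 67.7% were called higher in BTBR/R mice. After normexp correction the change was -0.04 (limma adjusted p = 0.642).

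The second Dao probe, A_55_P2108933, had B6 signals of -4.39, -6.40, -6.60 and -6.03 and BTBR/R signals of -6.03, -5.60, -5.67 and -4.07. B6 replicate 1 was the only mouse in which it was well above background, and the strains overlapped. The change was 0.51 (SE 0.60, limma adjusted p = 0.542), with a 95% interval from -0.90 to 1.92. It was 0.999 without B6 replicate 1 and 0.09 without BTBR/R replicate 4. A strain difference in Dao was therefore not detectable on these arrays. Of 5 markers of kidney proximal tubule, where Dao is known to be abundant, and of liver, 0 were detected on every array. Lrp2 was detected in 4 B6 and 3 BTBR/R mice, at mean scaled signals of -3.12 and -3.29, Slc34a1 in 1 B6 mouse, Alb in 1 BTBR/R mouse, and Kap and Apoa1 in no mouse.

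D-aspartate oxidase (Ddo), which degrades D-aspartate, was measured by 3 probes, 1 of which was called. At A_52_P448335, the probe farthest along the gene, the B6 signals were -2.78, -2.97, -2.57 and -2.79 and the BTBR/R signals -4.82, -5.04, -4.68 and -5.01. All 4 B6 signals were well above background, none of the 4 BTBR/R signals was, and the strains did not overlap. The B6 signals exceeded the detection limits of all 4 BTBR/R arrays, each the lowest signal detected on that array. A signal above this limit is not always detected. At Fat2 the BTBR/R signals of -3.25 to -2.92 all lay above the limits, but only 3 of 4 were detected.

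The measured change at A_52_P448335 was -2.11 (SE 0.11, limma adjusted p = 2.69e-05). Because no BTBR/R signal was detected, its size is given as an approximate bound. For this, the signal on each BTBR/R array was raised to the detection limit of that array where it lay below. On this basis BTBR/R mice had about 1.90-fold less signal (change -0.93). This is not a strict minimum, since a probe can lie above the limit and still not be detected. Of the 3485 probes detected in all 4 B6 mice and in none of the BTBR/R mice, 20.9% were called lower. After normexp correction the change was -0.88 (limma adjusted p = 1.78e-05), and with every signal below the highest detection limit raised to that limit it was -0.77 (limma adjusted p = 0.00142). Both changes are smaller in size than -0.93, are under 2-fold and were not called. The probe was lower in BTBR/R mice under all 18 alternatives that could be fitted.

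The other Ddo probes, which are annotated to NM_027442, were not called. At A_55_P2033997 the B6 signals were -2.16, -1.94, -1.997 and -2.19 and the BTBR/R signals -2.40, -2.41, -2.22 and -2.21. All 8 were well above background, and the lowest B6 mouse lay just above the highest BTBR/R mouse. Strains did not overlap at 32.6% of all probes detected on the 8 arrays. The probe was 1.18-fold lower in BTBR/R mice (change -0.24, SE 0.08, 95% interval -0.43 to -0.05), with a limma adjusted p of 0.0547. Over the alternatives the adjusted p ran from 0.0229 to 0.128 and was below 0.05 in 4 of 19.

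At A_66_P123155 the B6 signals were -0.89, -0.92, -0.84 and -1.36 and the BTBR/R signals -0.90, -0.78, -0.45 and -0.91. The strains overlapped, with B6 replicate 4 the lowest of the 8 mice and BTBR/R replicate 3 the highest. The change was 0.24 (SE 0.15, limma adjusted p = 0.250, 95% interval -0.11 to 0.60).

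The difference in change between the 2 Ddo probes detected on every array was tested by permuting the strains over the per-array difference of the probes. It was -0.48, with an exact two-sided permutation p of 0.0286, the smallest that 4 arrays against 4 allow, and an adjusted p of 0.2 over the 7 pairs of probes of the same gene. Of the 6 Srr pairs, the smallest exact permutation p was 0.114. When A_52_P448335 was added with its BTBR/R signals at the detection limit, a choice made after seeing the data, its change differed from that of A_55_P2033997 by -0.69 and from that of A_66_P123155 by -1.17. Each of these had an exact permutation p of 0.0286 and an adjusted p of 0.0857 over 9 pairs. No pair passed the adjustment. Every Ddo pair stood at the smallest p, and none could have passed unless Srr pairs had reached it too. The adjusted values therefore cannot decide whether the Ddo probes differed in change.

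**Figure D2:**
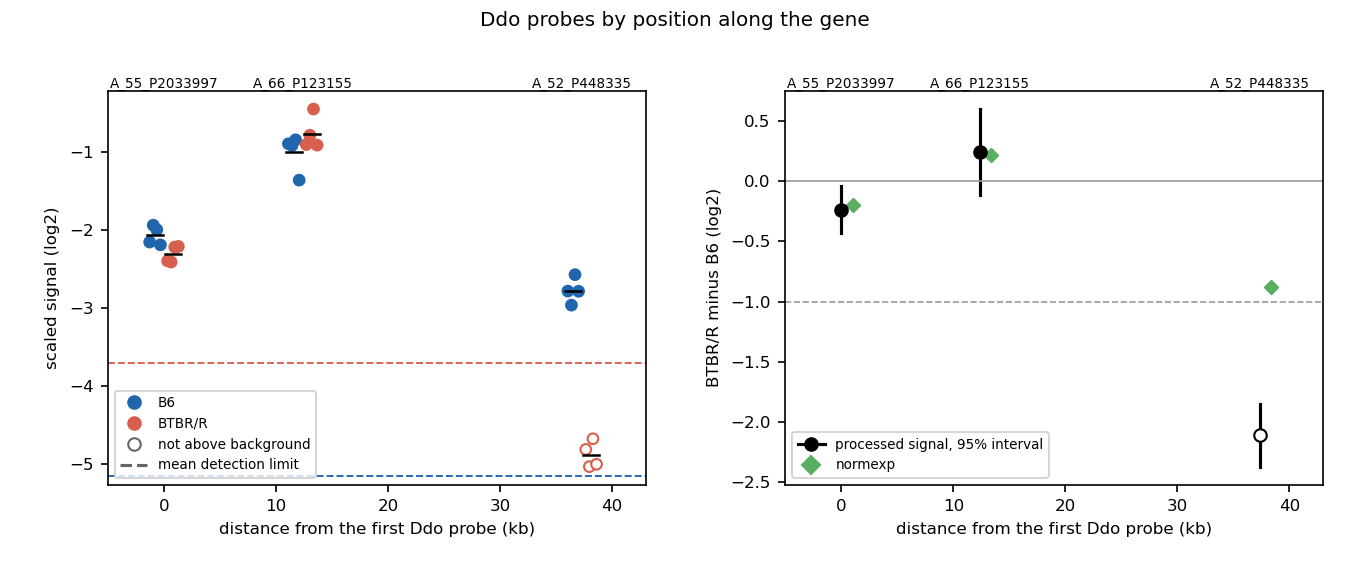
Left, scaled signal (log2) of the 3 Ddo probes on the 4 B6 and 4 BTBR/R arrays against the distance from the first probe (kb), with open points not well above background, black lines at the means and dashed lines at the mean detection limits. Right, change (BTBR/R minus B6, log2) with its 95% interval, and the change after normexp correction as diamonds; the change was -0.24, 0.24 and -2.11 along the gene.

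Slc1a4, the gene of the exchanger ASCT1, was measured by 1 probe, A_55_P2109589, whose shared run is shown above. Its B6 signals were -0.07, 0.04, 0.02 and 0.01 and its BTBR/R signals 0.09, 0.49, -0.06 and -0.06. BTBR/R replicate 2 was the highest mouse, and the other BTBR/R mice lay around the B6 values. The change was 0.12 (SE 0.13, limma adjusted p = 0.496, 95% interval -0.18 to 0.42), and -0.0068 without BTBR/R replicate 2. The same mouse had the highest BTBR/R signal at Srr A_52_P172711 and at Slc7a10 A_55_P2728217.

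Slc7a10, the gene of Asc-1, a transporter of D-serine, glycine and other small neutral amino acids, was higher in BTBR/R mice at the probe of its RefSeq transcript. At A_51_P268193 (chr7:35985868-35985927, plus strand; NM_017394) the B6 signals were 1.53, 1.29, 1.28 and 1.26 and the BTBR/R signals 1.62, 1.65, 1.70 and 1.55. The strains did not overlap, but B6 replicate 1 lay close to the lowest BTBR/R mouse and apart from the other B6 mice. The probe was 1.22-fold higher in BTBR/R mice (change 0.29, SE 0.07, 95% interval 0.11 to 0.46), with a limma adjusted p of 0.0181. An adjusted p below 0.05 was found at 1 of the 8 member probes detected on all 8 arrays and at 26.9% of all such probes, 13.0% higher and 13.9% lower. Over the 19 alternatives the change ran from 0.25 to 0.35 and the adjusted p from 0.00263 to 0.0540, below 0.05 in 16. The adjusted p was 0.0508 without B6 replicate 2, 0.0505 without B6 replicate 3, and 0.00263 without B6 replicate 1.

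The second Slc7a10 probe, A_55_P2728217, comes from a cDNA with an apparently retained intron (BC027516) and was near the detection limits. Its B6 signals were -4.44, -4.37, -4.60 and -4.28, all well above background. Its BTBR/R signals were -4.03, -3.45, -4.06 and -5.99, of which that of replicate 2 alone was well above background. The change was 0.04 (SE 0.51, limma adjusted p = 0.962), and its 95% interval from -1.15 to 1.23 leaves changes of over 2-fold in either direction undecided. Without BTBR/R replicate 4 the change was 0.57 (limma adjusted p = 0.0414), and without BTBR/R replicate 2 it was -0.27 (limma adjusted p = 0.702).

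**Figure D3:**
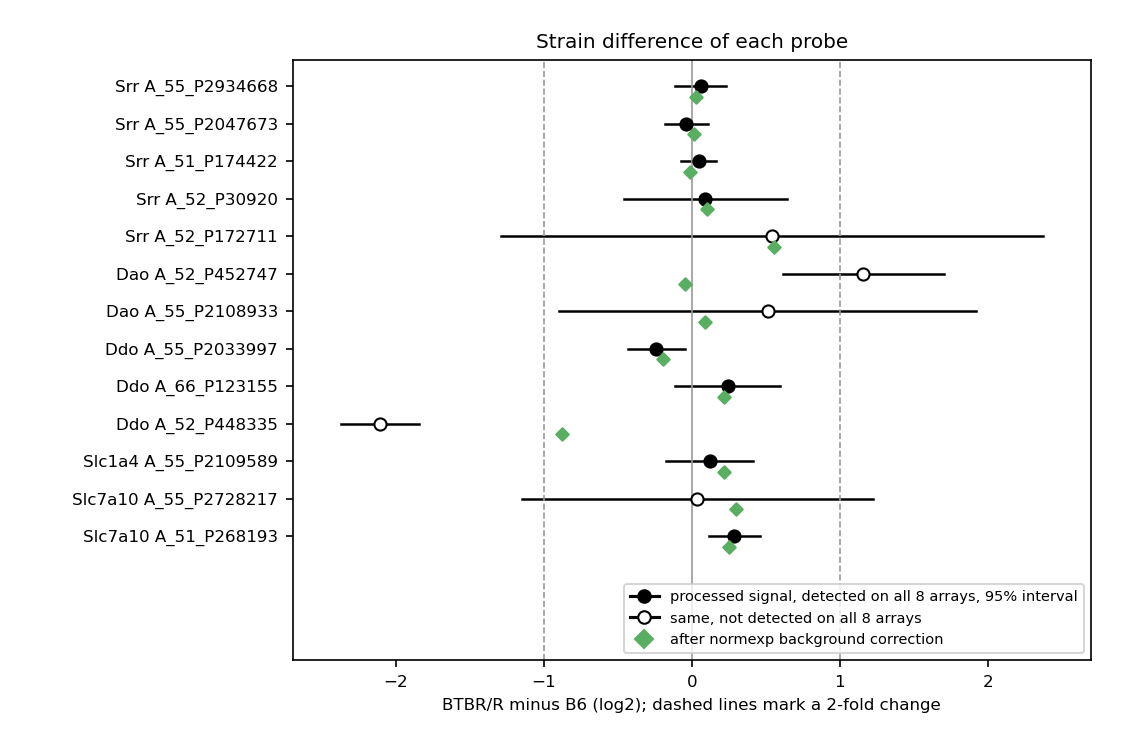
Change of each of the 13 probes (BTBR/R minus B6, log2) with its 95% interval from limma, filled where the probe was detected on all 8 arrays, and the change after normexp background correction as diamonds. Dashed lines mark a 2-fold change. The diamonds lie near the points for probes detected on all 8 arrays. They lie away from the points at Dao A_52_P452747 (1.16 and -0.04) and A_55_P2108933 (0.51 and 0.09). They also do so at Ddo A_52_P448335 (-2.11 and -0.88) and Slc7a10 A_55_P2728217 (0.04 and 0.30).

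Related genes were grouped in 6 lists of 48 measured genes, 43 of which had a probe detected on all 8 arrays. Of their 74 such probes, 1 was called, 6 had an adjusted p below 0.05 and were higher in BTBR/R mice, 14 were lower and 54 did not pass. Over all probes detected on all 8 arrays, 2.20% were called and 26.9% had an adjusted p below 0.05, 13.0% higher and 13.9% lower, and the share of the 74 that passed in either direction was near this background. The counts of single lists given next are to be read against the same shares. The median change of the 74 probes was -0.04, beside 0.0015 over all probes detected on all 8 arrays. Genes of these lists with no called probe, other than Phgdh, Slc1a5, Pex7, Disc1 and Grin3b, are named after their values were seen.

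Of the enzymes that make and use L-serine, the precursor of D-serine, 3 of 12 probes fell and 0 rose, against 13.9% and 13.0% of all probes detected on all 8 arrays. They were those of the 3 steps of serine synthesis. For Phgdh, the first of these enzymes, the B6 signals were 4.31, 4.33, 4.32 and 4.16 and the BTBR/R signals 3.99, 4.05, 3.99 and 3.89. The strains did not overlap, and the BTBR/R level was 1.24-fold lower (change -0.30, SE 0.06, limma adjusted p = 0.00529). Psat1 fell by 0.27 at 1 probe (A_66_P121495, limma adjusted p = 0.00343) and changed by -0.15 at another (limma adjusted p = 0.0843). Psph, which completes the synthesis, fell by 0.15 (limma adjusted p = 0.0485, and 0.0169 to 0.143 over 19 alternatives). The 5 probes of the list with an unadjusted p below 0.05 include that of Gldc, of the glycine cleavage system, at -0.25 (limma adjusted p = 0.0713). The median change of the list was -0.12. Probes of Sds, Shmt1 and Shmt2 that were also called higher were not detected on all arrays of either strain.

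These 3 enzymes are known to be enriched in astrocytes of the adult brain. Of the 8 astrocyte markers, all detected on all 8 arrays, 3 had an adjusted p below 0.05 and all 3 were lower. Aldh1l1 fell by 0.31, Slc1a2 by 0.28 and Aqp4 by 0.28, whereas the changes were -0.09 for Gja1, -0.08 for Slc1a3, -0.07 for Atp1b2, 0.0073 for Gfap and 0.03 for S100b. In all, 6 of the 8 had a lower mean in BTBR/R mice. The mean scaled signal of the list was 3.03 to 3.17 in B6 mice and 2.88 to 3.098 in BTBR/R mice. Of the 5 oligodendrocyte markers 2 fell, Mobp by 0.80 and Mog by 0.35, and the mean scaled signal of this list was 3.90 to 4.28 in B6 and 3.68 to 3.91 in BTBR/R mice. The lowest limma adjusted p of the 6 neuron markers was 0.0729, that of Rbfox3 (mean scaled signal of the list 5.62 to 5.65 in B6 and 5.59 to 5.66 in BTBR/R mice). Their part in the differences of Slc7a10 and of the serine enzymes was not tested.

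Of the other transporters of serine and glycine, 1 of 13 probes rose and 2 fell, with a median change of -0.0080. Slc38a2, a sodium-coupled carrier of neutral amino acids, had B6 signals of 2.09, 1.90, 1.84 and 2.15 and BTBR/R signals of 2.60, 2.45, 2.37 and 2.66. The strains did not overlap, and the BTBR/R level was 1.44-fold higher (limma adjusted p = 0.00383). Its relative Slc38a5 was 1.29-fold lower (limma adjusted p = 0.00378). Slc3a2, the heavy chain with which Asc-1 and other amino acid transporters pair, fell by 0.45 at 1 probe (limma adjusted p = 0.000353) and changed by -0.04 and 0.01 at the other 2. Slc1a5 (ASCT2), the nearest relative of Slc1a4, changed by 0.59 with overlapping strains (limma adjusted p = 0.0987). The called probes of Slc6a5 and Slc6a14 were detected on no array.

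Among the enzymes of aspartate and other D-amino acids, 1 of 13 probes rose and 3 fell, with a median change of -0.08. Dtd1, which removes D-amino acids wrongly attached to tRNA, held the only called probe of all 6 lists detected on every array. At A_55_P2029549 (chr2:144594350-144594409, plus strand) its B6 signals were 3.98, 3.94, 3.93 and 4.00 and its BTBR/R signals 2.60, 2.47, 2.69 and 2.68. The strains lay far apart, and the probe was 2.55-fold lower in BTBR/R mice (change -1.35, SE 0.06, limma adjusted p = 1.37e-05). At A_51_P368571 (chr2:144594063-144594122, plus strand), annotated to the same transcript NM_025314, the change was -0.20 (limma adjusted p = 0.0857), and the strains overlapped. Another Dtd1 probe was detected on no array. The sequence of the strains under the Dtd1 probes was not analysed.

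Asns, which makes asparagine from aspartate, fell by 0.26 and 0.24 at its 2 probes (limma adjusted p = 0.00497 and 0.0304). Over 19 alternatives the adjusted p of the second probe ran from 0.00808 to 0.0742 and was below 0.05 in 12. Dglucy, the D-glutamate cyclase, listed on the array as 9030617O03Rik, rose by 0.86 at A_52_P553589 (limma adjusted p = 0.00598, and a change of 0.57 after normexp correction) and changed by -0.14 at A_55_P2031999 (limma adjusted p = 0.123). The aminotransferases Got1 and Got2 changed by -0.08 to 0.06, and the one probe of Got1l1 was detected on no array.

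Of the peroxisomal genes, Pex7, an import receptor, fell by 0.21 (limma adjusted p = 0.0175, at most 0.0680 over 19 alternatives and below 0.05 in 18), and the probes of Pex5, Pex13, Pex14 and Cat detected on all 8 arrays changed by -0.06 to 0.09. The oxidases Dao and Ddo are known to enter the peroxisome by the Pex5 route. Of the binding partners of serine racemase, 2 of 11 probes rose and 3 fell, and probes of the same gene went both ways. Golga3 rose by 0.17 at 1 probe (limma adjusted p = 0.0289, and below 0.05 in 11 of 19 alternatives) and fell by 0.37 at another (limma adjusted p = 0.00682), where the change was -0.23 after normexp correction. At its remaining probe, A_52_P140497, the change was 0.60 with strains that did not overlap (limma adjusted p = 0.0509, and 0.0360 after normexp correction). Dlg4 (PSD-95) fell by 0.28 and 0.22 at 2 probes (limma adjusted p = 0.00694 and 0.0315, below 0.05 in 18 and 13 of 19 alternatives). After normexp correction the change at the first of these, A_51_P302256, was -0.13 (limma adjusted p = 0.0683). At A_55_P2931373, also of Dlg4, the change was 0.16 with overlapping strains (limma adjusted p = 0.111). Disc1 rose by 0.31 (limma adjusted p = 0.0362, and below 0.05 in 11 of 19 alternatives), and the probes of Pick1 and Grip1 that were detected on all 8 arrays did not pass. A further Dlg4 probe, A_55_P2720037, was detected in no B6 mouse and had BTBR/R signals of -2.13, -5.70, -1.36 and -5.88, of which those of replicates 1 and 3 were well above background. It was called and was 2.61-fold higher with the B6 signals raised to their detection limits. This value averages detected and undetected BTBR/R signals and is not a minimum. After normexp correction the change was 0.96 (limma adjusted p = 0.201) and was not called.

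Subunits of the NMDA and delta receptors, on which D-serine or glycine act, had 20 probes detected on all 8 arrays, of which 2 rose, 2 fell and 16 did not pass. Both falling probes were of Grid1, a delta receptor (changes -0.38 and -0.27, limma adjusted p = 0.00472 and 0.0127). After normexp correction the first of these changes was -0.19 (limma adjusted p = 0.0225). The GluN2 subunits of the list bind glutamate. Grin2a rose by 0.33 at 1 probe (limma adjusted p = 0.0276, and below 0.05 in 12 of 19 alternatives) and changed by -0.23 at each of the other 2, and Grin2b rose by 0.17 at 1 of 3 (limma adjusted p = 0.0488) and changed by 0.0079 and -0.03 at the other 2. Over 19 alternatives the adjusted p of this Grin2b probe ran from 0.0190 to 0.157 and was below 0.05 in 8. Grin1, the obligatory NMDA receptor subunit, changed by 0.02 to 0.07 at 3 probes. Grin3b changed by -0.35 with overlapping strains (limma adjusted p = 0.0965), and the called probe of Grin3a was detected on no array.

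**Figure D4:**
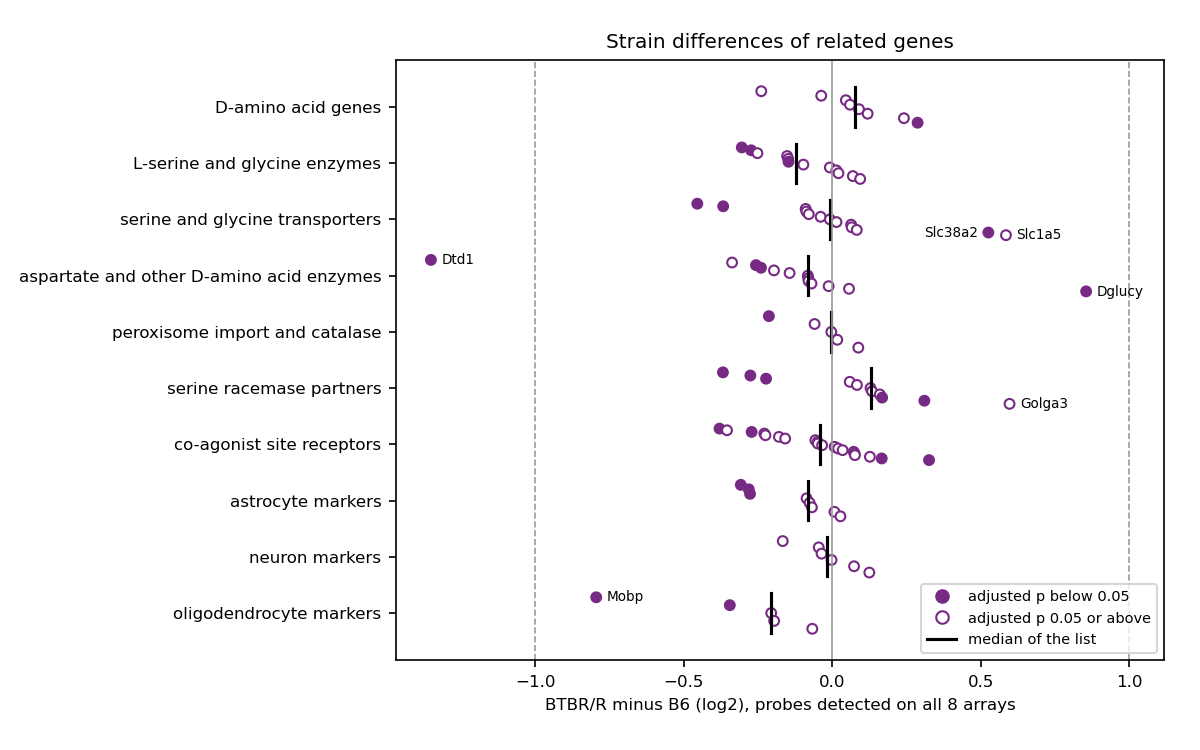
Change (BTBR/R minus B6, log2) of every probe detected on all 8 arrays for the 5 D-amino acid genes, the 6 lists of related genes and, by the brightest probe of each gene, 3 lists of cell type markers. Filled points had an adjusted p below 0.05, black lines are list medians and dashed lines mark a 2-fold change; Dtd1 (-1.35) is the only point beyond a dashed line.

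Genes near the 5 members were examined for strain differences of their own. Within 1 Mb of the Ddo probes lay 66 probes of 46 other genes, 32 of them detected on all 8 arrays, of which limma called 0 (9 at an unadjusted p below 0.05, and 0 by the methods' t-test). Their changes lay between -0.29 and 0.40, and none of the 66 was both called lower and, like Ddo A_52_P448335, detected in every B6 mouse and no BTBR/R mouse. Around Slc1a4, 0 of 24 such probes were called (6 at an unadjusted p below 0.05, and 0 by the methods' t-test).

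Around Slc7a10, 2 of 34 probes detected on all 8 arrays were called, 22 of 34 having an unadjusted p below 0.05. Nudt19, a peroxisomal nudix hydrolase, lay 346 kb away and was lower by 3.43-fold in BTBR/R (limma adjusted p = 1.44e-06), and Dpy19l3, 516 kb away, was 2.11-fold higher (limma adjusted p = 2.76e-05). Around Dao, 2 of 55 were called, Cmklr1 (2.60-fold lower) and Sgsm1 (2.52-fold higher), and 15 of 55 had an unadjusted p below 0.05. Oasl1, named after its values were seen, had a probe that, like Ddo A_52_P448335, was called lower and seen in all B6 mice but in 0 BTBR/R mice. Around Srr, 2 of 53 were called, Tlcd2 (2.73-fold higher) and 1700016P03Rik (3.04-fold higher), and 24 of 53 had an unadjusted p below 0.05. The methods' t-test called 2 probes around each of Slc7a10, Dao and Srr. Probes called lower that were detected in every B6 mouse and no BTBR/R mouse numbered 0 around Srr, Slc7a10 and Slc1a4. The background is the 2.20% given above for the called probes, 35.9% for those with an unadjusted p below 0.05 and 2.15% for the methods' t-test.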

How the data were processed

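RNA of 4 B6 and 4 BTBR/R mice was measured on 8 arrays. The authors deposited the spot intensities of Agilent Feature Extraction (version 10.7.3.1 in the submitters' processing notes), whose processed signal is background subtracted and detrended. The authors also deposited log2 values, which were the log2 processed signals shifted by 1 constant for each array (99.97% or more of the probes within 0.01) and served as an alternative. Deposited flags (score columns) gave control, outlier and detected spots.

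Of 62976 spots, 59305 were not controls. Outlier spots were left out and spots of a probe averaged, leaving 56605 probes. The strain comparison used lmFit and eBayes of limma 3.58.1 in R 4.3.3, with strain as the only term, and probe pairs by exact permutation with scipy 1.17.1 in Python 3.11.15. The script was tested on simulated data. The methods compared strains by a t-test at an FDR of 0.05 and 2-fold, which was run as an alternative. Members and gene lists were chosen with earlier results of these data known. All member probes were named, and for each list the genes with a called probe and the gene whose brightest probe changed most. The number of arrays limits the precision, and p-values measure the spread between mice. Alternatives were normexp correction (offset 50), quantile, median and detected-probe scaling, the authors' log2 values, detection filters, limma's trend and robust options, a replicate block, leaving out each mouse, and, added after seeing the data, a floor at the highest detection limit. Marker levels are the mean scaled signal over the brightest probe of each gene. The result of 1 gene is not reported here.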

Additional observations from a re-analysis of the deposited data

Results flagged for a closer look

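In 3 of 28 groups of 4 mice, formed by strain at each of the 13 probes and at the called Dtd1 probe, 1 mouse stood apart from the others by Dixon's test, which flags about 1 in 20 groups by chance. Ddo A_66_P123155 had a scaled signal of -1.36 in B6 replicate 4, against -0.92 in the next lowest B6 mouse. The change of 0.24 was 0.12 without this mouse and 0.14 without BTBR/R replicate 3, which was not flagged. Srr A_52_P30920 had a signal of -0.75 in BTBR/R replicate 4, against -1.68 in the next BTBR/R mouse. Slc7a10 A_51_P268193 had a signal of 1.53 in B6 replicate 1, against 1.29 in the next B6 mouse, and the change of 0.29 was 0.35 without this mouse.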

How the results depend on the processing

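The number of called probes differed between ways of processing and filtering the signals. It was 12697 (11413 higher, 1284 lower) in the reported comparison, 563 (231 and 332) with normexp correction, 2200 (544 and 1656) with quantile normalization, 1557 (362 and 1195) and 631 (300 and 331) with probes detected on every array of a strain or on all 8 arrays, and 789 (276 and 513) with the floor added later. Of the members, 2 were called in the reported comparison, 0 with normexp correction or the floor, 1 with quantile normalization, and, with the 2 filters, 1 of 11 and 0 of 8. Of the member changes, those of Dao turned to -0.045 (A_52_P452747) with normexp correction and to -0.052 and -0.024 (A_52_P452747 and A_55_P2108933) with quantile normalization, and had no value under the floor, where all 8 arrays were at the limit. With normexp correction Srr A_55_P2047673 turned to 0.018, A_51_P174422 to -0.012 and their difference to 0.029, and with quantile normalization Slc7a10 A_55_P2728217 turned to -0.12. Leaving out each mouse gave 11792 to 12929 called probes, 2 called member probes each time and 0 pairs. Only changes near 0 or set by 1 mouse then changed sign: Srr A_55_P2934668 (-0.0035 to 0.10), A_52_P30920 (-0.15 to 0.18) and A_52_P172711 (-0.28 to 1.05), Slc1a4 (-0.0068 to 0.18), Slc7a10 A_55_P2728217 (-0.27 to 0.57), and the Srr pairs A_55_P2934668 minus A_51_P174422 (-0.046 to 0.050), A_55_P2934668 minus A_52_P30920 (-0.12 to 0.21), A_55_P2047673 minus A_52_P30920 (-0.24 to 0.11) and A_51_P174422 minus A_52_P30920 (-0.15 to 0.19). Why these values moved was not tested beyond the mice left out. The replicate numbers gave no sign of pairing the mice, though this cannot exclude it. Deviations of same-numbered mice correlated at -0.07 to 0.156 over 28547 probes, and those of differently numbered mice at -0.13 to 0.153. A replicate block gave 11693 called probes and 2 called member probes, and an adjusted p of 0.0540 for Slc7a10 A_51_P268193.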

Other observations

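For 4 of the 5 genes, the probe detected on all 8 arrays with the largest change was set against all other such probes, and genes among the 3 with the highest Pearson r over the 8 arrays are named. These correlations are descriptions over 8 arrays that share 1 slide, chosen as the highest of 28547 probes, and carry no test. The Slc7a10 signal (A_51_P268193) went most closely with those of Mtss1 (r = 0.987) and Srebf1 (r = 0.981), a regulator of lipid synthesis. Within the strains, after the strain means were taken out, these were 0.965 and 0.926. The Slc1a4 signal went with Gm9734 (r = 0.988), a Grin1 probe (r = 0.988) and Phf21a (r = 0.985), and without the 2 mice farthest from the median r was 0.960, 0.834 and 0.878. The Ddo signal (A_66_P123155) went with Ppdpf (r = 0.984), Cib1 (r = 0.959) and Ostf1 (r = 0.950), and without 2 mice r was 0.930, 0.612 and 0.634. The Srr signal (A_52_P30920) went with Phxr1 (r = 0.972), Klhdc10 (r = 0.971) and Shf (r = 0.971), and without 2 mice r was 0.808, 0.755 and 0.942.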
